A study of Mus musculus with 3 samples.

Results

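The response of RAW264.7 macrophages to lipopolysaccharide (LPS) alone was described from the authors' deposited log2 ratios of LPS-challenged to unchallenged cells. Its members are the probes with a value in the LPS column of the deposited ratio table, joined by probe name to the gene names and the background calls of the LPS array. Of 7576 such probes, 2 were marked as outlier spots by the scanner software and were left out. The remaining 7574 probes carried 6708 of the 36870 gene names on the array. A ratio is listed only where it reached 2-fold, so a log2 ratio of 1 or more, or of -1 or less.

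RAW264.7 is a mouse macrophage line transformed by Abelson murine leukemia virus, so that its cells divide continuously. The study asked how lactobacilli isolated from tea leaves change the response of these cells to LPS. One-colour (Cy3) arrays of total RNA were analysed here for 3 conditions, each with 1 array: LPS alone for 3 h, and LPS for 3 h after Lactiplantibacillus plantarum LOC1 or after LOC3, whose cultures received the lactobacilli for 12 h by the design text. Unchallenged macrophages enter only through the ratios, since their own array is not analysed here, and the sources differ on the dose of LPS and on the time with lactobacilli. With 1 array per condition, neither an SD nor a test can be given for any difference, and every value below describes these arrays.

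LPS is a glycolipid of the outer membrane of Gram-negative bacteria. It is handed by LBP and CD14 to the receptor pair TLR4 and MD-2, which signals at the cell surface through the adaptor MyD88 to NF-kB and MAP kinases. From endosomes it signals through the adaptor TRIF to IRF3 and interferon beta, which then acts back on the cell through its receptor and JAK kinases to induce interferon-stimulated genes.

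The label of the cells was set against markers on the LPS array, by each gene's brightest probe. All 10 macrophage markers were well above background, from an intensity of 2641 for Spi1, which encodes the lineage factor PU.1, to 244528 for Lyz2, which encodes lysozyme, and they summed to 665322. Markers of other cells summed to 4451 for T cells (4 of 6 well above background, with Cd3g and Cd8a not), 92.2 for B cells (2 of 5), 556 for granulocytes (3 of 6, with Ltf not), 36.3 for epithelium (1 of 5, with Krt8 not) and 215 for fibroblasts (4 of 5, with Col3a1 not). Most of the T cell sum was Lck, a kinase gene, at 3086. No probe of Actb, Gapdh or Hprt was in the ratio table, so that these genes have no ratio here.

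The unchallenged intensity of a probe was taken back from its LPS intensity and its listed ratio, on the scale of the LPS array, and is called the implied intensity. The lowest intensity well above background on the LPS array was 16.3. A signal under this limit, or not called well above background, was raised to it before the fold was taken. A ratio with 1 side raised is a bound and is given as at least so many fold, and a probe dim on its higher side gave no fold. A gene with several listed probes was represented by the one with the highest mean log2 signal over both conditions. By this rule 2203 genes were at least 2-fold higher with LPS, 5.98% of all gene names, and 2153 were at least 2-fold lower, 5.84%. Of the 20420 gene names detected on any of the 3 arrays, 10.8% were higher and 9.52% lower. These shares are the background for the counts of each gene group below. When the ratios were centred on the median of the probes measured on both sides, which lay at -0.187 on the log2 scale, the split moved to 2516 higher and 1578 lower. That median covers only probes listed for at least 1 of the 3 arrays, so probes selected for a change, and not the whole array. Centred so, lower genes just beyond -1 fell under 2-fold, and not all of them are marked below. A second centre was the median of the 3 housekeeping genes with a ratio, of 14, at -0.058. Among these 3 was B2m, itself higher at 3.25.

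Higher genes reached further than lower genes. The 2203 higher genes comprised 1774 measured on both sides and 429 bounds, with a median log2 ratio of 1.68. The 2153 lower genes comprised 1758 measured and 395 bounds, with a median of -1.43. At least 8-fold was reached by 418 genes on the higher side and by 108 on the lower side. At least 64-fold was reached by 74 and by 1. Just inside the threshold were Ezr at 1.0002 and Mex3d at -1.0003, and just outside it Rnase4 at -0.9993. Of 421 genes with 2 or more listed probes measured on both sides, 8 had probes on opposite sides, and the median range of the log2 ratio between probes of a gene was 0.26. The brightest probe of the gene was in the table for 1857 of the higher and 1724 of the lower genes. For the others the ratio rests on a dimmer probe. Of the genes named below these were E2f2, Cdc6, Brca1, Mcm7, Aurkb, Top2a, Irf7, Stat2, Jak2, Tap1, Nlrc5, Ddx58, Mx1, Oasl1, Lcn2, Pde4b, Tnfaip2, Nfkb2, Rela, Tnfsf15, Il1rn, Tlr3, Tlr13, Cd86, Tnfrsf23, Cflar, Sqstm1, Slc7a11, Cx3cr1, Ptafr, Lpl, Apoc2, Lck and Fap. In 56 of the higher and 57 of the lower genes a brighter probe in the table was blank for LPS, and so under 2-fold. With such probes standing for their genes, an alternative added after the data were seen, 2147 genes were higher and 2096 lower. B2m, Cd86, Apoe, Lpl, Fads2 and Top2a were of this kind.

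**Figure D1:**
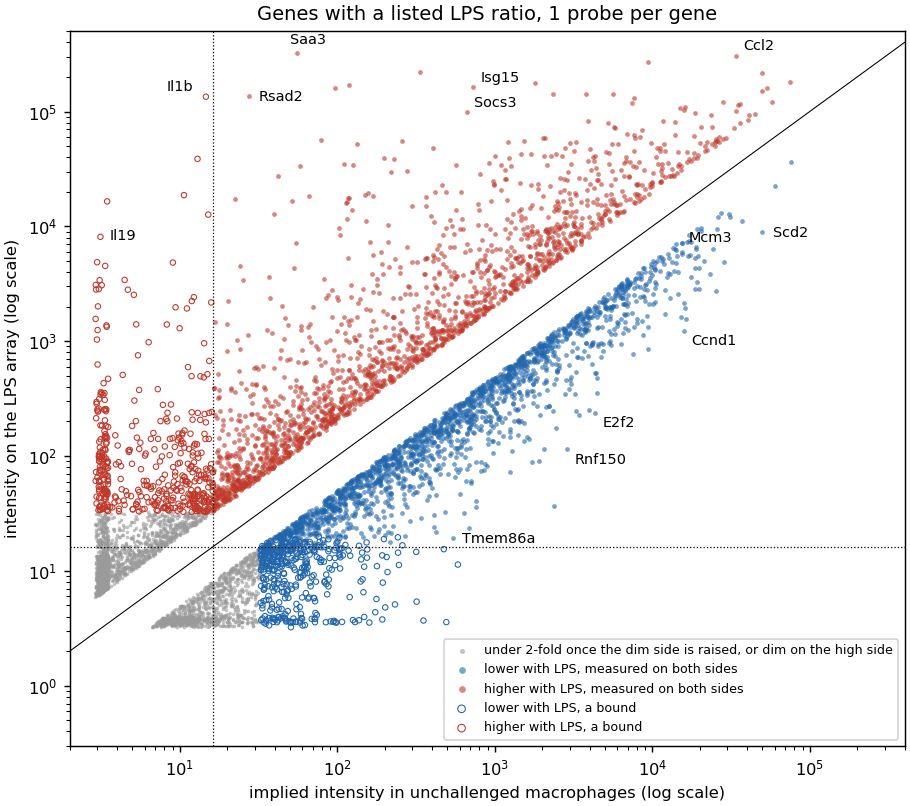
Each point is a gene with a listed LPS ratio, with the implied intensity in unchallenged macrophages on the horizontal axis and the intensity on the LPS array on the vertical axis, both on log scales. The dotted lines mark the limit of 16.3, open circles are bounds, grey points gave no 2-fold difference once dim signals were raised, and the red points reach further from the diagonal (74 genes at least 64-fold) than the blue ones (1 gene).

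The gene with the highest ratio among those measured on both sides was Saa3, which encodes an acute phase apolipoprotein. Saa3 had an implied intensity of 55.4 in unchallenged macrophages and 320239 on the LPS array, the brightest signal of any higher gene, at a log2 ratio of 12.50. It was followed by Rsad2, encoding the antiviral enzyme viperin, at 12.28 (from 27.7 to 137417) and Acod1, encoding the enzyme that makes itaconate, at 10.67 (from 97.2 to 158869). The next were Cxcl10, Oasl1, Cmpk2, Ccl5, Mx2, Gbp2b and Saa1, between 10.47 and 8.60. The other listed probe of Mx2 had a deposited ratio of 3.84. Its fold is only a bound, with an implied intensity of 3.06 and 43.9 with LPS. Csf1, the growth factor gene of macrophages themselves, had 51.4 unchallenged and 16790 with LPS, at 8.35, and its other listed probe gave 5.66. Among the bounds, Il1b was at least 8245-fold higher, Ifit1 at least 2372-fold and Il19, of the IL-10 cytokine family, at least 497-fold, with 8112 on the LPS array.

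On the lower side the furthest measured ratio belonged to an unnamed transcript of chromosome 3, described below. Among named genes it was Tmem86a, encoding a lysoplasmalogenase, with an implied intensity of 542 and 19.5 with LPS, at -4.80. Rnf150, a RING finger gene, had 2879 and 114, at -4.65. Dab2ip, which encodes a Ras GTPase-activating protein, had 1899 and 90.8, at -4.39. Each of these genes was far above the limit before the challenge and much closer to it afterwards. Thbd (thrombomodulin), Rcan2 (a calcineurin inhibitor), Zbtb16 (the zinc finger factor PLZF), Robo2 (a guidance receptor) and Sesn1 (a stress-induced regulator of mTORC1) lay between -4.30 and -3.99. The brightest genes on the lower side were Zfp646 and Mcm6, with implied intensities of 75809 and 60198 and log2 ratios of -1.07 and -1.43. Zfp646 was under 2-fold when centred on the measured median. The brightest lower genes also included the replication genes Mcm3, Uhrf1 and Fen1.

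Gene lists of 39 kinds were set against these counts. They hold 1120 genes on the array, of which 351 were higher and 138 lower. The guanylate-binding protein, interferon-stimulated gene, NF-kB, MHC class I and SOCS lists had the largest shares of higher genes, from 100% down to 72.7%, and the list of DNA replication and S phase genes the largest share of lower genes, 86%. Lists near the background shares on both sides included hypoxia and glycolysis (5 of 34 higher, 4 lower) and NRF2 targets (3 of 24 higher, 3 lower). A gene with no probe in the ratio table has no ratio here and counts as neither. Many abundant genes were of this kind, such as 55 of 57 ribosomal protein genes and 39 of 44 genes of oxidative phosphorylation.

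**Figure D2:**
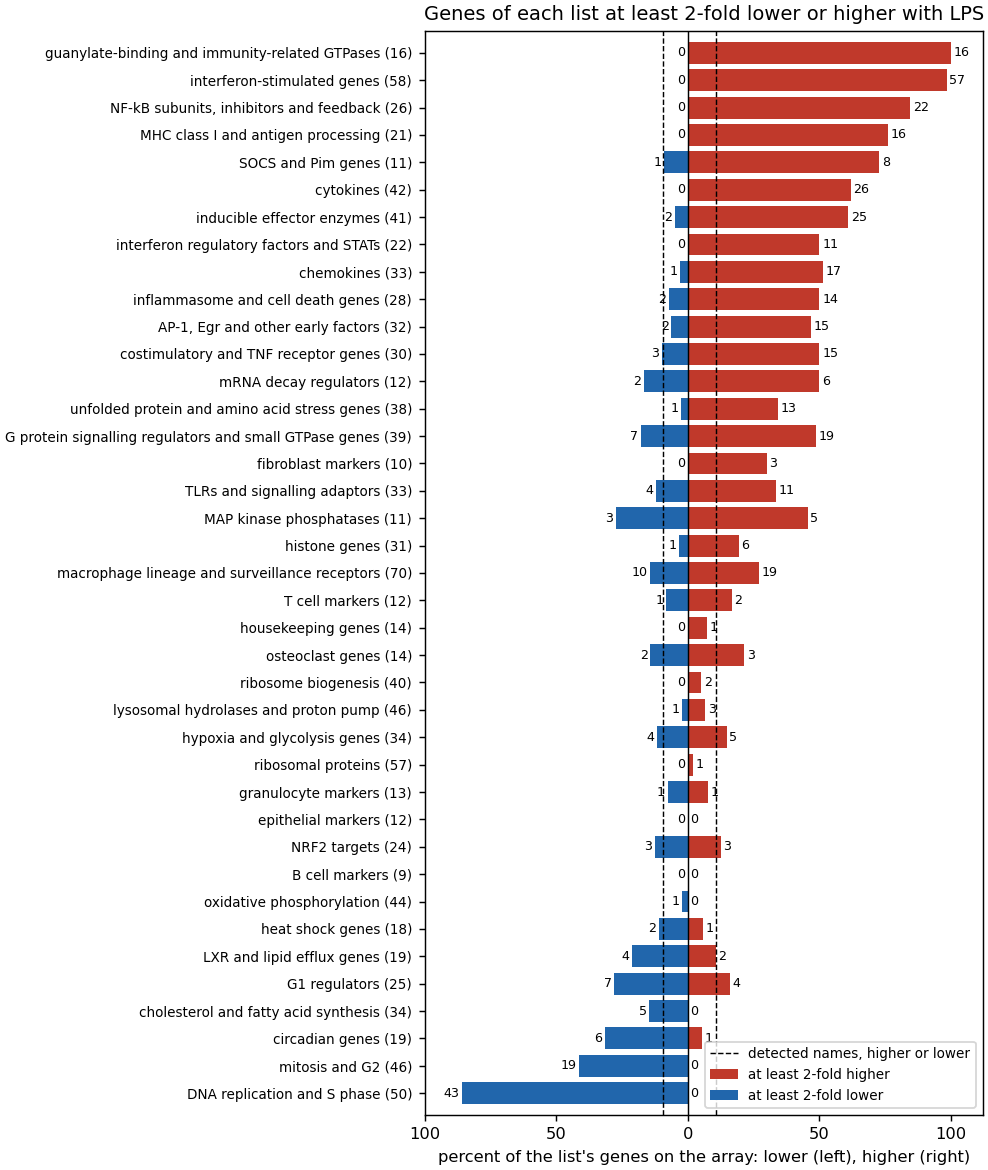
Bars give the percent of each list's genes on the array (their number in parentheses) that were at least 2-fold higher with LPS, to the right, or lower, to the left, with the number of genes at the end of each bar. Dashed lines mark the shares among all detected gene names, 10.8% higher and 9.52% lower, and the longest bars belong to guanylate-binding proteins and interferon-stimulated genes on the right and to DNA replication and S phase on the left.

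Interferon-stimulated genes were higher as a group. Of 58 on the array 57 were higher and 0 lower, with a median log2 ratio of 4.49, and 45 reached 8-fold. The exception was Ms4a4c, which has no probe in the ratio table. Isg15, which encodes a ubiquitin-like modifier, had an implied intensity of 727 and 162916 with LPS, and Usp18, which encodes the protease that removes it, had 256 and 55742. Their log2 ratios were 7.81 and 7.76. Of the RNA sensors, Ifih1 (MDA5) had 5.35 and Ddx58 (RIG-I) 5.49, and the RNA-activated kinase gene Eif2ak2 had 2.66. The DNA sensor gene Zbp1 went from 82.4 to 3462. The Mx1 probe, with an implied intensity of 3.10, gave a bound of at least 208-fold. At the low end of the list were Nmi at 1.96, Ifi213 at 1.51 and the bound of Slfn1 at 1.50, whose LPS intensity was only 46.1.

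Guanylate-binding proteins and immunity-related GTPases, interferon-induced enzymes that act on vacuoles holding microbes, were higher in 16 of 16 genes with a median of 6.65. Gbp2, Gbp3 and Gbp7 had log2 ratios of 8.08, 7.65 and 7.53. Gbp3 had an implied intensity of 198 and an LPS intensity of 39712. Irgm1, Irgm2 and Igtp lay between 4.66 and 5.58. The lowest of the group was Gbp10 at 1.49. Bounds were given by Gbp4, Gbp5, Gbp6, Iigp1 and Tgtp2, and the other listed probes of Gbp5 and Iigp1 were far lower, at 2.25 and 1.56. Paralogs of these families are close in sequence, and probes may share target transcripts.

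Promoter windows of 2 leading genes are shown because each holds the core of the interferon-stimulated response element, the site bound by ISGF3 and IRF factors (the interferon response core, a pair of GAAA blocks set apart by any pair of bases, on either strand). The windows are from RefSeq (GRCm38.p6), run 5′ to 3′ on the gene's strand from 250 bases before to 50 after the gene start, and have the match in capitals. Ifit1 lies at chr19:34640639-34640938 (+ strand) with cores starting 104 and 85 bases before the gene start, and Rsad2 at chr12:26456403-26456702 (- strand) with 1 core 120 bases before it.
Ifit1: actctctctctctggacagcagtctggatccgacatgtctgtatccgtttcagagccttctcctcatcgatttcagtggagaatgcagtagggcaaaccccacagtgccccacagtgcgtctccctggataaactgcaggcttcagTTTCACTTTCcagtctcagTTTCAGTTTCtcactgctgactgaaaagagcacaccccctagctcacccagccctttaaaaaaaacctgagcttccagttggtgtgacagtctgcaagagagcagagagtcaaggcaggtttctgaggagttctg
Rsad2: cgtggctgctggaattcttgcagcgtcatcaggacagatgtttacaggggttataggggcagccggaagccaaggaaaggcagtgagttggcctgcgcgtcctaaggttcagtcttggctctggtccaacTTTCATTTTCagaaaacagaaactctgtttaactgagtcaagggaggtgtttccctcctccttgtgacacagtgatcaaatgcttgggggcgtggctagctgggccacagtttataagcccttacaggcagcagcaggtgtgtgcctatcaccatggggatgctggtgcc

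The factors that carry interferon signals were themselves among the higher genes. Of 22 genes for interferon regulatory factors, STATs, JAK kinases and receptor chains, 11 were higher and 0 lower, and 9 have no probe in the table. Irf7, the amplifier of interferon alpha genes, had the highest ratio, with an implied intensity of 54.6 and 7129 with LPS, at 7.03. Stat2 and Irf9, which act together in ISGF3, had log2 ratios of 3.01 and 2.43. Jak2 had 3.80 and Irf1 3.24, while Irf8, a lineage factor of macrophages, was under 2-fold at -0.75. No probe of Irf3 was in the table. With genes whose brightest probe is in the table, a choice made after the data were seen, 7 of these 11 genes counted as higher.

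Genes of MHC class I and its peptide supply were higher in 16 of 21 and lower in 0, with a smaller median of 1.45. Tap1, which encodes a chain of the peptide transporter, had 179.7 and 3453, at 4.26. Nlrc5, the transactivator of class I genes, had 3.27, and B2m, the light chain, 3.25 by a probe with an LPS intensity of 2395. A far brighter B2m probe, at 129550, was under 2-fold at 0.95. Immunoproteasome genes Psmb8, Psmb9 and Psmb10 lay between 1.21 and 1.46. The classical heavy chains H2-K1 and H2-D1 were close to the threshold, at 1.10 and 1.11, and probes of H2 genes may share transcripts.

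Cytokine genes were higher in 26 of 42 and lower in 0, with a median of 4.29, and 12 of the 26 were bounds because the gene was dim in unchallenged cells. Counting only probes measured on both sides, a choice made after the data were seen, 14 were higher. Tnfsf15 (TL1A) had an implied intensity of 37.1 and 3627 with LPS, at 6.61, and Tnfsf10 (TRAIL) had 19.9 and 1426, at 6.16. Il1a was at least 299-fold higher, and Il1rn, the receptor antagonist of IL-1, at least 148-fold. Of the granulocyte factor Csf3, the ratio was at least 38.5-fold. Smaller ratios were measured for Ebi3 at 2.17, Il18 at 1.98 and Osm (oncostatin M) at 3.26. Il27 and Lif were under 2-fold, at 0.95 and 0.83, and Lif was dim.

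Chemokine genes were higher in 17 of 33, with a median of 4.39, and 10 of these were measured on both sides. Ccl7 (MCP-3), a ligand of CCR2, went from an implied 1811 to 177801, at 6.62. Ccl3 (MIP-1 alpha), a macrophage inflammatory chemokine, went from 3820.0 to 141523, at 5.21. A single member was lower, the eosinophil chemokine Ccl24 (eotaxin-2), with 2505 and 1001, at -1.32. Ppbp, Ccl25 and Cxcl14 were under 2-fold, and 9 members had no probe in the table. The Ccl25 value rests on a dim probe at 15.5, while its brightest probe, at 914, was not in the table.

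Genes of the NF-kB system itself were higher in 22 of 26 and lower in 0, with a median of 3.28, and all 22 were measured on both sides. Inhibitors of the pathway spanned a wide range. Tnfaip3 (A20), a ubiquitin-editing enzyme that shuts off NF-kB signalling, had an implied intensity of 219 and 29619 with LPS, at 7.08. Nfkbia (IkB alpha), which holds NF-kB in the cytoplasm, had 7619 and 130338, at 4.10. Traf1, Nfkbiz (IkB zeta, which directs secondary response genes) and Tnfaip2 had 7.38, 7.13 and 5.49. Among the subunits, Relb, Nfkb2, Rel and Nfkb1 lay between 3.02 and 3.66, and Rela was lowest at 1.49. Irak3 (IRAK-M), an inhibitor of the receptor kinases, had 3.13. The IkB genes Nfkbie and Nfkbib had 3.21 and 2.87, and Tnip2, which encodes a partner of A20, 1.14. Cyld, a deubiquitinase of the same pathway, was under 2-fold at -0.70, and Nfkbid and Otulin had no probe in the table.

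Windows of Cxcl10 and Nfkbia are shown next because they hold a kB site, the sequence bound by NF-kB, and Cxcl10 holds both this and an interferon response core. Cxcl10 lies at chr5:92348840-92349139 (- strand), with the core starting 213 bases before the gene start and kB sites 159, 104 and 103 before it, of which the last pair overlap. Nfkbia lies at chr12:55492598-55492897 (- strand), with 1 kB site 29 bases before the start. Capitals mark the matches.
Cxcl10: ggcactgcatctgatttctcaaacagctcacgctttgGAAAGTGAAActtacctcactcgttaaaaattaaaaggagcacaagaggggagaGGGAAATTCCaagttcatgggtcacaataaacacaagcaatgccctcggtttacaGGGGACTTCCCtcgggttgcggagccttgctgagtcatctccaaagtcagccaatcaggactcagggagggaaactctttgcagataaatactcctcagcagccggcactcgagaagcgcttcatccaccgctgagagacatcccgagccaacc
Nfkbia: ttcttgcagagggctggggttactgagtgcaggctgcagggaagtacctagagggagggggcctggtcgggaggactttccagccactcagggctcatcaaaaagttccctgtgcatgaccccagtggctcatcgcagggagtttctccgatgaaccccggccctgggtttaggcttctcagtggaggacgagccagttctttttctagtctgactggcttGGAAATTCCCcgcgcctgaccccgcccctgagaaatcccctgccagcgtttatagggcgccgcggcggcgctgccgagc

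Feedback on cytokine receptors and on mRNA was also among the higher genes. Of 11 SOCS and Pim genes 8 were higher. Socs3, the inhibitor of IL-6 family signalling, went from 667 to 98815, at 7.21, and Cish and Socs1 had 6.78 and 6.34. The kinase genes Pim1 and Pim2 had 3.93 and 3.00. Socs5 was the single lower member, at -1.02, and was under 2-fold after either centring. Regulators of mRNA decay moved in both directions, with 6 of 12 higher and 2 lower. Zc3h12a (Regnase-1), an endonuclease for cytokine mRNA, had 44.5 and 2014, at 5.50, and Zfp36 (tristetraprolin), which binds AU-rich elements, had 1161 and 30868, at 4.73. Its paralogs lay on the other side, Zfp36l2 with 19799 and 2836, at -2.80, and Zfp36l1 at -1.45.

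MAP kinase phosphatases, which switch off ERK, JNK and p38, also divided. Of 11, 5 were higher, led by Dusp2 at 5.34 (from 1009 to 40969), Dusp5 at 3.41 and Dusp1 at 3.14. The 3 lower ones were Dusp6 at -1.55, Dusp9 at -1.42 and Dusp7 at -1.06, all of the cytoplasmic ERK-directed class. Dusp7 was under 2-fold when centred on the measured median. Early transcription factors were higher in 15 of 32 and lower in 2. Egr1 had an implied intensity of 37.6 and 2388 with LPS, at 5.99, and Atf3, Junb and Nr4a1 (Nur77) lay between 2.84 and 3.10. Fos was only at 1.34, 3 h after the challenge, and Jun and Myc had no probe in the table. The lower members were Klf10 at -1.63 and Egr3, a bound of at least 2.12-fold that fell under 2-fold when centred on the measured median.

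Pattern recognition receptors and adaptors were higher in 11 of 33 and lower in 4. Tlr2, the receptor of bacterial lipoproteins, had an implied intensity of 4022 and 47441 with LPS, at 3.56. The listed probes of Tlr4 itself, the LPS receptor, lay on opposite sides. The brighter one, at chr4:66591199-66591258, had 2213 and 4824, at 1.12, and the other, at chr4:66503724-66503782 (mm9), had 2562 and 1166, at -1.14. Tlr4 counts as higher by the first of these, so its direction is not settled here. Tlr1 and Tlr3 had 2.48 and 2.77, and Tlr6 1.15. The adaptor genes Myd88 and Ticam1 (TRIF) had 2.29 and 1.03, and the kinase genes Map3k8 (Tpl2) and Ripk2 4.41 and 2.80, with the dimmer probe of Map3k8 at 1.76. Ly96, which encodes MD-2, was under 2-fold at 0.35 by a probe with an LPS intensity of 304. The brightest Ly96 probe, at 2868, was not in the table. Cd14 had no probe in the table, although its brightest probe reached an intensity of 61731 with LPS. The lower members were the flagellin receptor Tlr5, at least 15.5-fold with both of its listed probes lower, Tlr13, a receptor of bacterial ribosomal RNA, with 1349 and 255, at -2.40, and Sarm1 and Irak4 at -1.28 and -1.16.

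Genes of inducible enzymes and secreted effectors were higher in 25 of 41 and lower in 2. Nos2 (inducible nitric oxide synthase) had 156 and 19696, at 6.98, and Ptgs2 (cyclooxygenase-2) had 116 and 16461, at 7.15. The constitutive enzyme gene Ptgs1 lay on the other side, with 17523 and 7283, at -1.27. Its second listed probe was lower too, as a bound, with 206 and 12.2. Gch1 and Ass1, which supply the cofactor and the substrate of nitric oxide synthase, had 3.53 and 2.59. Marco, a scavenger receptor gene, went from 2351 to 142337, at 5.92, and Lcn2, which encodes a siderophore-binding protein, had 6.95. Plau, which encodes the urokinase plasminogen activator, was lower, with 3015 and 462, at -2.71. The collagenase gene Mmp13 had 5.16 and the manganese superoxide dismutase gene Sod2 4.02.

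Costimulatory and TNF receptor genes were higher in 15 of 30, and 9 of these were measured on both sides. Cd274 (PD-L1) went from 102 to 9770.0, at 6.58, and the adhesion molecule gene Icam1 had 4.80. Tnfrsf1b, the second TNF receptor gene, had 3.35 and Cd86 2.26 by a probe at 474, while a brighter Cd86 probe at 1137 was under 2-fold at 0.47. The 3 lower members were neighbouring decoy and related receptor genes, Tnfrsf26, Tnfrsf22 and Tnfrsf23, at -2.06, -1.57 and -1.04. Tnfrsf23 was under 2-fold after either centring. Inflammasome and cell death genes were higher in 14 of 28 and lower in 2. Casp4 (caspase-11), the receptor of LPS in the cytosol, had 4.32, and Nlrp3 and Casp1 had 2.97 and 1.92. The death receptor gene Fas had 5.51, and the survival genes Bcl2a1d and Cflar had 4.73 and 3.53. The lower members included Bcl2, another survival gene, at -1.17, which was under 2-fold when centred on the measured median.

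In the unfolded protein and amino acid stress list 13 of 38 genes were higher. Atf4, the transcription factor of the amino acid response, went from 49872 to 216579, at 2.12. Its known targets Chac1, which encodes a glutathione-degrading enzyme, Trib3, Ddit3 (CHOP) and Ppp1r15a (GADD34) had 5.62, 2.71, 2.50 and 2.85. Other targets of ATF4 were under 2-fold, Asns (asparagine synthetase) at 0.65, Atf5 at 0.61 and the amino acid transporter genes Slc3a2 and Slc7a5 at 0.78 and 0.93. Nupr1, a stress-induced transcriptional regulator, had an implied intensity of 598 and 9580.0 with LPS. The chaperone genes Hspa5, Hsp90b1, Calr and Canx had no probe in the table, Dnajb9 and Hyou1 were under 2-fold at 0.20 and 0.18, and Sdf2l1 was the single lower gene at -1.01, under 2-fold after either centring. Of heat shock genes 1 of 18 was higher and 2 lower, and the counts were 0 and 1 with genes whose brightest probe is in the table.

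Of the hypoxia and glycolysis genes, the higher ones were Pfkfb3 (which makes the activator of phosphofructokinase) at 3.29, the hexose transporter gene Slc2a6 at 2.38, Hk2 at 1.97, Hif1a at 1.71 and Slc2a1 at 1.01. The hypoxia genes Ankrd37, Egln1 and Adm and the lactate exporter gene Slc16a3 were lower, at -3.23, -1.53, -1.31 and -1.32, and 17 of the 34 genes had no probe in the table. Of the NRF2 targets, the cystine transporter gene Slc7a11 had a bound of 3.46 on the log2 scale and Sqstm1 (p62) had 2.15, while Osgin1 and Gclc, the catalytic subunit of glutathione synthesis, were lower, at -3.08 and -1.29. None of the 3 higher NRF2 genes (0) had its brightest probe in the table.

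**Figure D3:**
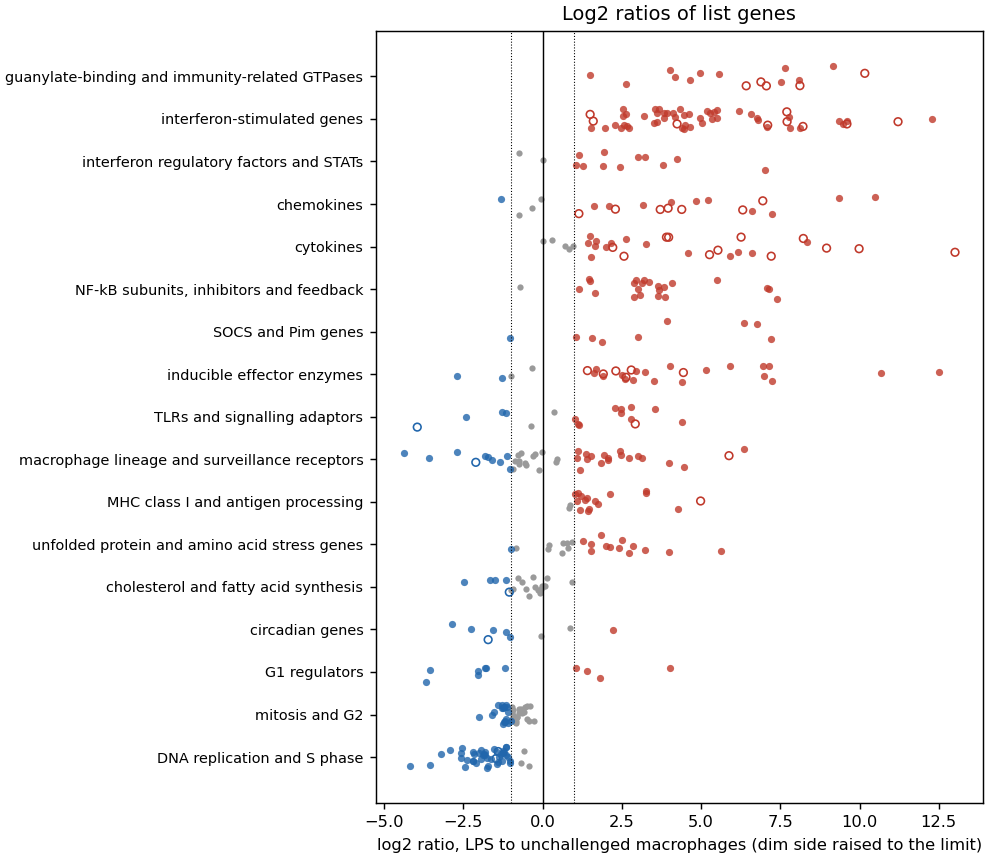
Each point is a gene of the list named on the vertical axis, placed by its log2 ratio of LPS to unchallenged macrophages with a dim side raised to the limit. Filled points were measured on both sides, open points are bounds, grey points were blank in the table (under 2-fold, rebuilt), and dotted lines mark 2-fold. The guanylate-binding protein and interferon-stimulated gene lists lie wholly to the right (16 of 16 and 57 of 57 with a ratio) and both cell cycle lists, S phase and mitosis, wholly to the left of 0. Grey points have a ratio only because they reached 2-fold on a lactobacilli-treated array.

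On the lower side, genes of DNA replication and S phase formed the most complete group. Of 50 on the array 43 were lower and 0 higher, with a median log2 ratio of -1.77. Of the remaining 7, 3 were under 2-fold and 4 (Gins3, Pcna, Rfc3 and Tyms) had no probe in the table, and all 46 genes with a ratio lay below 0. Those 3 have a ratio only because they reached 2-fold on a lactobacilli-treated array against the same reference, so their side of 0 is no separate support. The ratio furthest from 0 was that of E2f2, an activator of S phase genes, which had an implied intensity of 4352 and 237 with LPS, at -4.20, and E2f8 and E2f1 had -3.22 and -2.40. Cdc6, which loads the replicative helicase, had 1287 and 110.1, at -3.55, and Ccne1 (cyclin E1) had -2.56. The helicase subunits Mcm2 to Mcm6 were bright genes with smaller ratios, from -1.38 for Mcm5 to -1.88 for Mcm2, and Mcm7 had -2.18 by a dim probe. For Mcm3 the intensities were 37376 and 11237. Rrm2, the regulated subunit of ribonucleotide reductase, had 23197 and 3860.0, and Uhrf1, which guides maintenance methylation of DNA, had 28515 and 4860.0. Their log2 ratios were -2.59 and -2.55, and that of the methyltransferase gene Dnmt1 was -2.10. Brca1, a repair gene, had -2.92.

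Promoter windows of Mcm3 and Cdc6 are shown because each holds an E2F site, in 1 of 4 spelled forms (TTTGGCGC, TTTGCCGC, TTTCGCGC or TTTCCCGC, on either strand). Mcm3 lies at chr1:20820263-20820562 (- strand) with sites starting 20 and 39 bases after the gene start, and Cdc6 at chr11:98907901-98908200 (+ strand) with 1 site 138 bases before it. Capitals mark the sites.
Mcm3: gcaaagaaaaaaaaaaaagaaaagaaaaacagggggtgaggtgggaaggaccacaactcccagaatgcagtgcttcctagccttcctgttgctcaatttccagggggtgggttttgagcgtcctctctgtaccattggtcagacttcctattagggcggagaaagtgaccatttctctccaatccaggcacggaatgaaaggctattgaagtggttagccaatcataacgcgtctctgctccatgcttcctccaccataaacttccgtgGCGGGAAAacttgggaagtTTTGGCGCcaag
Cdc6: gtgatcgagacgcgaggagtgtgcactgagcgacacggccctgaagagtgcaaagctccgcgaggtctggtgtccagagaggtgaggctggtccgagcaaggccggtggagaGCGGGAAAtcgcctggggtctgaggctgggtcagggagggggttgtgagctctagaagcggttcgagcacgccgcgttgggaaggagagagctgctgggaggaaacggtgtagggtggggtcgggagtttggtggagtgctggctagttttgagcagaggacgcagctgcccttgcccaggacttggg

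Genes of mitosis and G2 were closer to 0 than those of S phase. Of 46 genes 19 were lower and 0 higher, with a median of -1.22 among the lower ones, 20 were under 2-fold between -0.97 and -0.28, and all 39 with a ratio lay below 0. Those 20 have a ratio only because they reached 2-fold on a lactobacilli-treated array against the same reference. Their side of 0 is therefore no separate support. Kif18a, a kinesin of chromosome alignment, had the furthest ratio at -2.01, and the kinase gene Aurkb had 658 and 227, at -1.54. Plk1, Ccna2 (cyclin A2) and Top2a (topoisomerase II alpha) lay between -1.15 and -1.10, with a brighter Top2a probe at -0.53. Mki67, Cdk1 and Ccnb1 (cyclin B1) were under 2-fold, at -0.82, -0.85 and -0.41. Centred on the median of measured probes, 12 of the 46 stayed at least 2-fold lower.

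**Figure D4:**
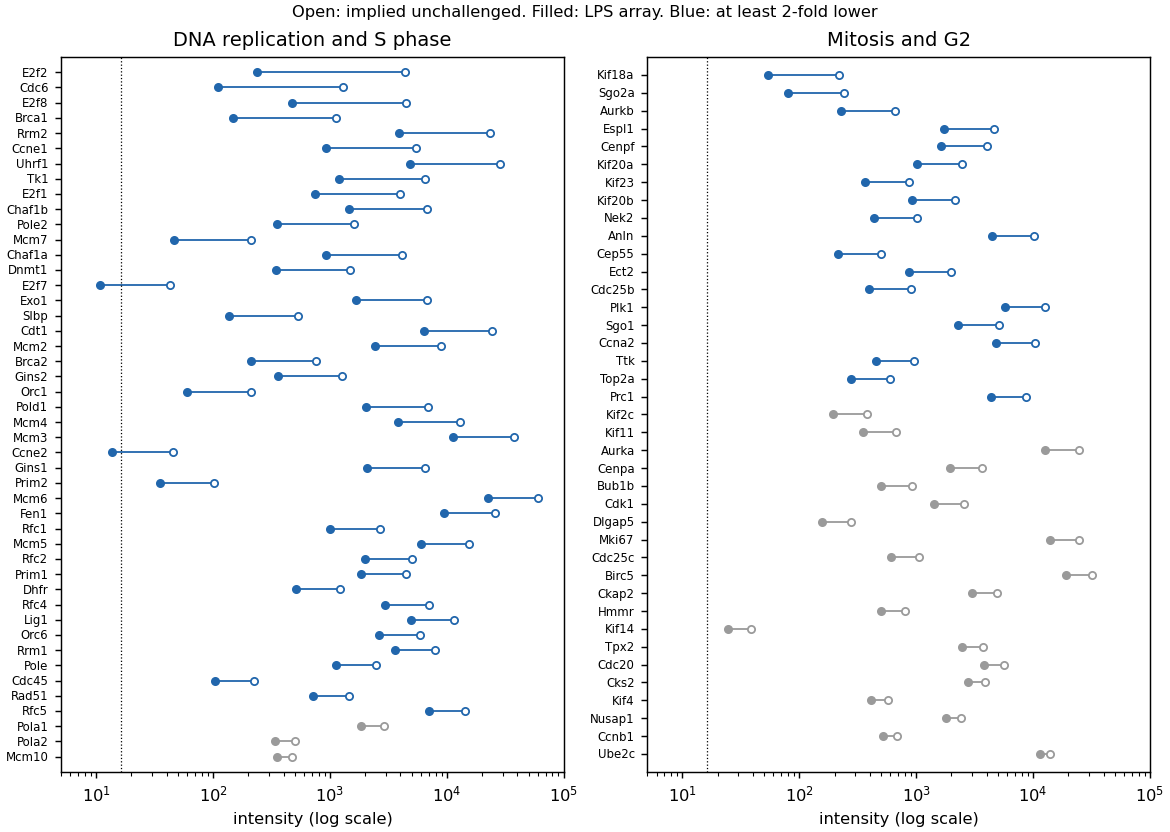
Each line joins the implied unchallenged intensity (open circle) of a gene to its intensity on the LPS array (filled circle), both on a log scale, for genes of DNA replication and S phase (left) and of mitosis and G2 (right), ordered by ratio. Every filled circle lies to the left of its open circle, blue genes were at least 2-fold lower (43 and 19), grey genes were under 2-fold, and the dotted line marks the limit of 16.3. Grey genes are shown only because they reached 2-fold on a lactobacilli-treated array.

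Among G1 regulators 7 of 25 were lower and 4 higher. Ccnd1 (cyclin D1), the partner of CDK4 and CDK6, had an implied intensity of 15805 and 1229 with LPS, at -3.68, and Ccnd3 had -1.82. Cdk2 and its neighbour in the pathway Rbl2 (p130) had -2.03 and -1.77. Cdkn2c (p18), an inhibitor of CDK4 and CDK6, was lower too, at -3.56. On the higher side were Mxd1, an antagonist of MYC, at 4.03, and Cdkn1a (p21), an inhibitor of CDK2, at 1.81. Of 31 histone genes 6 were higher and 1 lower, and 13 were under 2-fold, 11 of these below 0. Kinesin genes, taken by their names beginning with Kif, were lower in 11 of 41 and higher in 0.

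Surface receptors and lineage genes of macrophages moved in both directions, with 19 of 70 higher and 10 lower. The formyl peptide receptor gene Fpr2 went from 53.0 to 4303, at 6.34, and Adgre1 (F4/80) from 522 to 11368, at 4.45. Adora2b, an adenosine receptor gene, had 3.97, and Ptafr, the receptor gene of platelet-activating factor, 2.74. On the lower side Cx3cr1, the fractalkine receptor gene, had 757 and 36.2, at -4.39, though its brightest probe is not in the table. Gpr183, the receptor gene of oxysterols, had 702 and 58.2, and S1pr1, a sphingosine 1-phosphate receptor gene, 4726 and 726. Their log2 ratios were -3.59 and -2.70. The ADP receptor genes P2ry12 and P2ry13 and the TGF beta receptor genes Tgfbr1 and Tgfbr2 were lower, at -1.58, at least 4.31-fold, -1.81 and -1.33. Of the lineage factors, Spi1 (PU.1) was higher at 1.39 and Cebpa lower at -1.71. Csf1r, the receptor of CSF-1, was blank for LPS, with a rebuilt ratio under 2-fold at -0.13.

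The list of G protein signalling regulators and small GTPase genes had 19 of 39 higher and 7 lower. It also holds other genes, such as Pde4b, Kdm6b and Etv5. Pde4b, a phosphodiesterase gene for cyclic AMP, had 5.39, Kdm6b, a histone H3 lysine demethylase gene, 3.52, and Rab20 3.55. Rgs2 and Rgs18, which switch off G proteins, were lower, Rgs2 with 9402 and 856, at -3.46, and Rgs18 at -2.42. The Ras exchange factor gene Rasgrp3 was at least 6.68-fold lower and the Ets factor gene Etv5 had -2.09. In the osteoclast list 3 of 14 were higher and 2 lower, and Nfatc1, the master factor of that fate, had -1.93. RAW264.7 cells can form osteoclasts under RANKL.

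Lipid genes were mostly near or below 0. Of 34 genes of cholesterol and fatty acid synthesis 5 were lower, 3 when centred on the measured median, and 0 higher, and 16 were under 2-fold between -0.99 and 0.92. The stearoyl-CoA desaturase gene Scd2 was among the brightest lower genes of the array, with 49732 and 8954, at -2.47. The desaturase genes Fads1 and Fads2 had -1.51 and -1.15, with a brighter Fads2 probe at -0.84, and Dhcr7, the last enzyme of cholesterol synthesis, -1.65. In the LXR and lipid efflux list Rxra, the partner of LXR, had 8683 and 1136, at -2.93, and Apoe, Lpl and Apoc2 lay between -1.49 and -1.42. Brighter probes of Apoe and Lpl were under 2-fold, at -0.89 and -0.48, and with those probes 2 of the 19 genes of the list counted as lower in place of 4. The count was also 2 with genes whose brightest probe is in the table. Nr1h3 (LXR alpha) and the fatty acid binding protein gene Fabp4 were higher, at 2.04 and 2.12, and the efflux pump gene Abca1 was under 2-fold at -0.53.

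Circadian genes were lower in 6 of 19 and higher in 1, or 2 when centred on the measured median. The repressor gene Bhlhe40 (DEC1) had 971 and 135, at -2.85, and the PAR-domain factor genes Tef and Dbp had -2.26 and -1.56. Their opponent Nfil3 (E4BP4), which binds the same elements, was higher at 2.23. Arntl (BMAL1) and Clock, the activators of the clock, were under 2-fold at 0.85 and -0.04. Of 40 ribosome biogenesis genes 2 were higher and 0 lower, with 5 higher after centring on the measured median and 4 on the median of 3 housekeeping genes. Lysosomal genes were higher in 3 of 46 and lower in 1, and with genes whose brightest probe is in the table in 1 and 0. Among the former was the regulator Tfeb at 1.17, whose other listed probe, measured too, was at -3.42.

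Lists of other cell types gave few members. Of 10 fibroblast genes 3 were higher (Col1a1, Dcn and Fap), all as bounds between 1.72 and 2.42, with 0 measured on both sides, and their summed signal on the LPS array was small beside that of the macrophage markers. T cell genes were higher in 2 of 12 and lower in 1, led by Lck at 3.30, and 1 was higher with genes whose brightest probe is in the table. Granulocyte genes were higher in 1 of 13, Camp at 3.45, and lower in 1, S100a8 at -1.07, under 2-fold when centred on the measured median. B cell (9 genes) and epithelial (12 genes) lists had 0 higher and 0 lower. The part of other cells in any result was not tested.

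Several of the higher families lie side by side in the genome (mm9, by the probe positions in the file headers). At chr3:142181426-142300778 all 5 guanylate-binding protein genes were higher, and at chr5:105443767-105752204 all 6. At chr19:34650244-34723886, 5 of 6 Ifit genes were higher, all but Ifit1bl2. The p200 family at chr1:175385660-175956806, cytosolic and nuclear DNA sensors such as Aim2 and Ifi204, had 10 higher of 10 detected gene names, and the OAS genes at chr5:121180343-121371654 had 9 of 10, all but Oas1d. The Schlafen genes at chr11:82765536-83089579 had 8 of 9. The chemokine groups around Ccl2 (chr11:81850650-81990510) and Ccl5 (chr11:83339296-83478111) each had 4 of 5, while that around Cxcl2 (chr5:91190490-91334593) had 2 of 5, namely Cxcl1 and Cxcl2. No gene name in any of these 9 spans was lower (0). Members of a family are related in sequence, so that their probes are not independent measurements.

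Unnamed transcripts were among the largest ratios on both sides, and the array names each by its mm9 span and strand. The furthest lower ratio among those measured on both sides, -6.00, belonged to chr3:104415775-104442425_F, with an implied intensity of 2383 and 37.1 with LPS. Its nearest gene probe is that of Slc16a1, a monocarboxylate transporter gene, 22.5 kb away. On the higher side, chr10:69669025-69686275_R had 116 and 11565, at 6.65, 26.9 kb from the probe of Ccdc6. A pair of higher transcripts lies by Mir155hg, the host gene of miR-155, a microRNA of macrophage activation. The probe of chr16:84708695-84708806_F, 6.64 kb from that of Mir155hg, reached 3092 on the LPS array, which put it at least 189.5-fold higher, and chr16:84702353-84710928_R, on the other strand, had 16.8 and 1461, at 6.44. Mir155hg itself was at least 11.3-fold higher, with an LPS intensity of 185. In the p200 family, chr1:175705225-175717250_F had 5.16, 33.3 kb from the probe of Ifi204. The paraspeckle RNA Neat1 had 1.43.

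Broad classes of gene names were taken by their prefix. Zinc finger genes were higher in 24 of 415 and lower in 37, and transmembrane protein genes (Tmem) higher in 13 of 252 and lower in 34. Tripartite motif genes, many of them ubiquitin ligases of antiviral defence, were higher in 13 of 67 and lower in 8. Solute carriers were near balance, with 28 of 377 higher and 34 lower. Long intergenic RNA names were higher in 160 of 4062 and lower in 99. Olfactory and vomeronasal receptor genes, best known from sensory neurons, were higher in 34 of 1379 and lower in 3, and 50 of their 96 listed genes were dim on the side where they were high.

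Promoter windows of 300 bases from RefSeq (GRCm38.p6) were searched on both strands for short motifs, taking the first window listed for each gene. Of the 2203 higher genes 1394 had a window by symbol, and of the 2153 lower genes 1461. The interferon response core occurred in 3.49% of all 27025 windows, in 8.32% of the windows of higher genes, in 17.5% for genes at least 8-fold higher (275 of 418 with a window) and in 2.12% for lower genes. Among interferon-stimulated genes, guanylate-binding proteins and immunity-related GTPases, 30 of 55 windows held it, 54.5%. The kB site occurred in 8.18% of all windows, 12.3% for higher genes and 9.03% for lower genes, in 10 of 22 windows of NF-kB genes (45.5%) and in 11 of 30 of higher cytokine and chemokine genes (36.7%). No window of the NF-kB list held the interferon core (0 of 22).

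The E2F site followed another order. It occurred in 2.32% of all windows, 2.22% for higher genes, 5.89% for lower genes and 37.5% of the windows of S phase genes (15 of 40), but in 4.88% of those of mitosis genes (2 of 41). AP-1 sites (TGANTCA) were in 7.93% of all windows, 10.5% for higher and 5.27% for lower genes, and the TATA box (TATAAA) in 14.2%, 13.1% and 6.43%, with 43.3% among higher cytokine and chemokine genes. The cAMP response element (TGACGTCA), the CArG box and the sterol regulatory element occurred in 1.88%, 1.57% and 0.244% of all windows. Base composition differed between the sets as well. Median GC was 52.7% over all windows, 56.7% for higher genes, 62.0% for lower genes and 49.0% for interferon-stimulated genes and guanylate-binding proteins, and its part in the shares was not tested. Sites of the kB motif can overlap each other, a CArG box can hold a TATA box, and a match says only that the letters occur in the window.

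**Figure D5:**
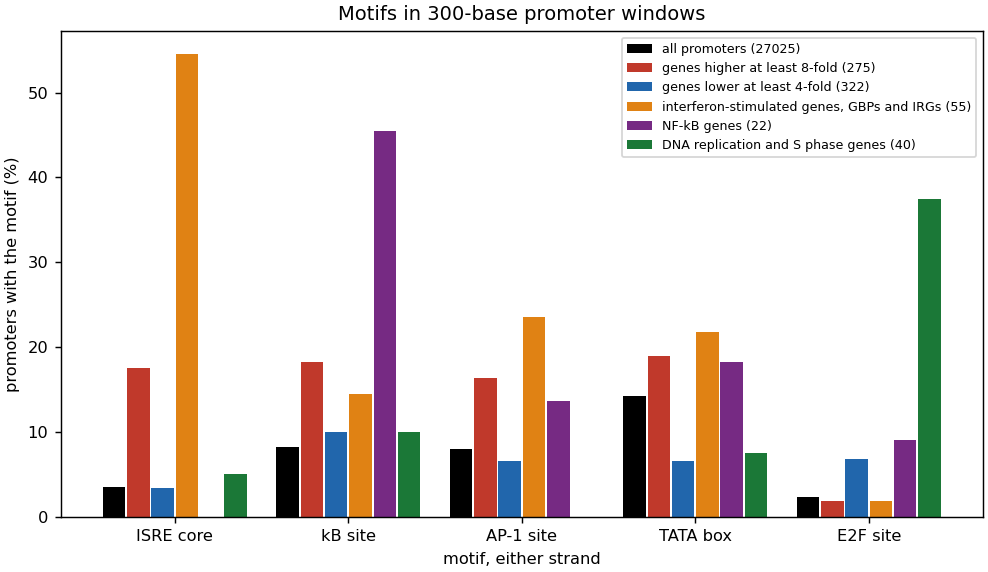
Bars give the percent of 300-base promoter windows that hold each motif on either strand, for all promoters and for gene sets (number of windows in parentheses). The tallest bars are the interferon response core among interferon genes (54.5%), the kB site among NF-kB genes (45.5%) and the E2F site among S phase genes (37.5%).

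For the leading genes, the ratios of the lactobacilli-treated arrays stand beside those of LPS alone. All 3 columns share 1 unchallenged reference, and with 1 array each no difference between them could be tested. Rsad2 had deposited log2 ratios of 12.28 with LPS, 12.86 after LOC1 and 12.85 after LOC3, and Isg15 had 7.81, 8.31 and 8.32. Saa3 had 12.50, 11.73 and 12.18. For Nfkbia the 3 values were 4.10, 4.09 and 4.18, and for Tnfaip3 7.08, 6.51 and 6.75. On the lower side, E2f2 had -4.20, -4.22 and -4.37, and Mcm3 -1.73, -1.72 and -1.74. Ccl24 had -1.32 with LPS alone beside -4.92 and -5.40, further below the reference on both lactobacilli arrays.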

How the data were processed

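Total RNA of RAW264.7 macrophages was measured on 1-colour Agilent mouse arrays, 1 for each condition. Spot intensity was corrected for background by the authors with Feature Extraction (12.0.3.1 in the file headers) and deposited with no scaling from array to array. The log2 ratio of each array to unchallenged macrophages was deposited by the authors for 13135 probes, with values under 2-fold left blank. The submitters' processing notes name limma and R 3.2.5, which the study's methods give for the statistics. No spread between cultures can be estimated, and the number of arrays limits the precision. Between spots of probes printed 10 times, the median SD of the log2 intensity was 0.035 for bright and 0.25 for dimmer probes.

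The reference implied by the LPS column was the same as that of the LOC1 and LOC3 columns within 0.001 on the log2 scale for all but 2 of 5510 and 2 of 5534 probes, after a constant shift per column. The 5557 blank LPS cells rebuilt from it lay under 2-fold, up to 0.999 on the log2 scale. They could be rebuilt only for probes listed at 2-fold or more on a lactobacilli-treated array. Spots marked as outliers were left out. Scale, centring and direction of the ratio column were thus found from the intensities, apart from the unchallenged array itself. Python 3.11.15, numpy 2.4.6, pandas 2.3.3 and matplotlib 3.10.9 were used. The code of the rule was checked on simulated probes with large planted changes, which says nothing of the spread between cultures.

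The members, the 39 lists and the motifs were chosen with earlier results of these data known. The rule for named genes takes the 15 largest measured ratios, the 10 largest bounds and the 10 brightest genes per direction, up to 5 genes of each list per direction, defining members that lie elsewhere, the housekeeping genes Actb, Gapdh and Hprt, and the TLR4 pathway, which gives 245 genes with a fold. A few of these genes are not reported here. Further members are named for their role, chosen after their values were seen. The alternatives changed the limit, the probe that stands for a gene, the threshold, the centring, the outlier spots and the unit.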

Additional observations from a re-analysis of the deposited data

How the results depend on the processing

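The counts of 2203 higher and 2153 lower genes depend most on dim signals and on the threshold. With the ratios as listed and no limit, 3540 genes were higher and 3168 lower. At 3-fold, 1191 were higher and 835 lower. Centred on the median of measured probes, 2516 were higher and 1578 lower. Under the other alternatives, including those of genes whose brightest probe is in the table and of brighter probes with a blank cell, chosen after the data were seen, the higher count lay between 1776 and 2552 and the lower count between 1724 and 2433. With the mean of the listed probes, Tfeb moved from 1.17 to -1.13 and Tlr4 from 1.12 to -0.01, since their probes lie on opposite sides. Of 318 genes and unnamed transcripts checked, 35 moved by over 0.25 with no limit, 69 with a limit 2 times as high, and 36 with the mean of the listed probes, besides Tfeb and Tlr4. Taking the probe brightest on the LPS array moved 0 of them by that much. No paired analysis was possible because each condition has 1 array. Any difference between cultures cannot be told apart from the effect of LPS here, and signals under the limit of 16.3 give bounds only.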
